A study of Mus musculus with 24 samples.

Results

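Neurons were taken from the primary motor cortex of mice that had practised reaching with a forelimb for 2 days (early) and compared with neurons of untrained control mice. Each group held 2 pools, and each pool held the cells of 2 mice by its label, which control 1 went against in sex. Within the pools, neurons were sorted by their raw UMIs (unique molecular identifiers, each standing for 1 captured transcript) into 7 subtypes. A cell was taken as glutamatergic with at least 1 UMI of Slc17a7, the vesicular glutamate transporter, and as GABAergic with at least 2 UMIs of Gad1 and Gad2 together, the enzymes that make GABA. The marker with the most UMIs, among Cux2, Rorb, Fezf2 and Foxp2 for glutamatergic cells and among Pvalb, Sst and Vip for GABAergic cells, gave the subtype. Of 27441 cells that passed the filters in the 4 pools, 9087 were typed in this way. They came as 1831 and 2926 cells from control 1 and control 2, and as 1872 and 2458 cells from early 1 and early 2. The 24 barcode lists of the whole series, which also covers dorsal striatum, hold 138555 barcodes.

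All mice of these groups had the genotype Fos-CreER::Ai9 and received 4-hydroxytamoxifen (4-OHT), and tissue was taken 3 days after labelling. The Fos promoter drives the recombinase in this line, so that any cell with Fos activity while the drug is present switches on the tdTomato reporter for good. Control mice received the drug and no training. A further 2 pools trained for 8 days (late) entered the fits, because they allow the effect of the library kit to be estimated. Tissue was digested with papain and pooled by hemisphere from a mouse marked M and a mouse marked F, and the 2 hemisphere libraries of a pool were summed. The pool was the unit of replication, the cells of single mice cannot be told apart beyond their sex, and ages are not given in the sources used here.

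In the motor cortex, Cux2 marks upper-layer intratelencephalic neurons, Rorb neurons of the middle layer, and Fezf2 and Foxp2 deep-layer neurons that project to the spinal cord, brainstem and thalamus. Pvalb, Sst and Vip mark the main groups of cortical interneurons, which inhibit the cell body, the dendrites and other interneurons, respectively. Neuronal activity switches on immediate early genes such as Fos, Junb, Egr1, Npas4 and Arc within minutes, and these are followed over hours by effector genes such as Bdnf and Nptx2 that act at synapses. Motor learning is known to engage such genes in motor cortex, and the comparison asks which of them, and which other genes, differed after 2 days of training.

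The 8 early and control libraries held from 541 to 7027 barcodes and from 5260446 to 30470621 UMIs, and the smallest was the left library of control 1. The sums of control 1 therefore came mostly from the right hemisphere, with 2187 right and 243 left glutamatergic cells and 519 and 26 GABAergic cells. Control 2 had 1401 right and 2250 left glutamatergic cells. Gated glutamatergic neurons had medians of 5866.5 and 9964 UMIs in control 1 and 2, and of 12326 and 5315 in early 1 and 2, so depth did not separate the groups. Libraries from the batch of control 1 and late 1 shared 1.34 barcodes per 1000000 pairs with each other, the other libraries shared 0.259 among themselves, and the 2 sets shared 0.0222 with each other. This placed control 1 and late 1 on another kit (kit A), no early pool has that kit, and kit was a term in the fits over the 6 pools, save where a value is given without it. No pair of the 12 libraries shared more than 1.48% of the smaller one's barcodes. Control 1, labelled as a male and a female mouse, held 5 UMIs of Xist against 21078, 23614 and 9826 in control 2, early 1 and early 2, with 2020 UMIs of Y-linked genes, and thus went against its label. Values without control 1 are given beside many of the results, and control 2 and early 1, which carry the same batch label, give a difference within 1 batch.

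The subtype names were checked against marker genes that the sorting did not use. All 6 markers of the Foxp2 gate, the Sst gate and the Vip gate, all 5 of the Pvalb gate, and 5 of 6 of both the Cux2 gate and the Rorb gate were highest in their own gate in each of the 4 pools. Htr3a, a serotonin receptor of Vip interneurons, stood at 248 and 193 UMIs per 1000000 in the control pools of the Vip gate and at 242 and 274 in the early pools, and at 23.2 or lower in the other GABAergic gates. In the Fezf2 gate only 1 of 6 markers did so. That marker was Tshz2, a transcription factor of near-projecting deep-layer neurons, at 411 and 445 in control and 506 and 341 in early pools, whereas Bcl11b and Crym, known from corticospinal neurons, were higher in the Foxp2 gate in all 4 pools. The Fezf2 group is therefore named here by its gate alone. The marker of the subtype rested on exactly 1 UMI in 34.6% of Cux2, 21.4% of Rorb, 34.1% of Fezf2, 25.4% of Foxp2, 17.4% of Pvalb, 12.3% of Sst and 6.54% of Vip cells. Just outside the GABAergic gate lay 763 cells with 1 UMI of Gad1 or Gad2 and none of Slc17a7.

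Few genes separated early from control neurons within a subtype. In edgeR's quasi-likelihood test, 3 of 81922 gene and subtype pairs had a Benjamini-Hochberg adjusted p under 0.05 (0.00366%), and these are the genes written as called. They were Tac1 in the Sst gate, Hbb-bt in the Rorb gate and Ccl4 in the Fezf2 gate, and none of the activity-regulated genes was among them. The Cux2, Foxp2, Pvalb and Vip gates gave 0 calls by edgeR, with 340, 337, 353 and 580 genes at an unadjusted p under 0.05 (2.56%, 2.59%, 4.71% and 4.94%), and DESeq2 called 1, 0, 0 and 0 there. In the Rorb, Fezf2 and Sst gates 246, 472 and 381 genes were at that unadjusted p (1.89%, 3.49% and 3.84%). Over all gated glutamatergic neurons edgeR called 0 of 18224 genes (389 at an unadjusted p under 0.05, 2.13%) and DESeq2 called 4. Over all gated GABAergic neurons edgeR called 0 of 14342 (711, 4.96%) and DESeq2 called 1. The 2 pools of a group came from different mice and carry different batch labels. With kit in the fit, the p-values rest on the spread between the 2 early pools. They also rest on how far the gap between the control pools differs from that between the late pools. In edgeR each gene's spread is further drawn toward that of the other genes. This borrowing added from 4.29 (all glutamatergic neurons) to 17.9 (Sst gate) degrees of freedom to the gene's own 2. The plain spread between the control pools is not measured, since those pools also differ in kit. Values without control 1 set the early pools against control 2 alone. Values without control 2 set them against control 1 shifted by the kit gap of the 2 late pools, and so rest on the late pools too. In both, the spread is taken from the early pools with 1 residual degree of freedom. They are therefore given as changes without a p-value.

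Tac1 encodes the precursor of substance P, a neuropeptide of some interneurons. It lies on chromosome 6 of GRCm38 at 7554879 to 7565834, plus strand. In the Sst gate it stood at 47.6 and 25.2 CPM (counts per 1000000 UMIs, scaled by TMM factors) in control 1 and 2 and at 113 and 112 in early 1 and 2. The early pools were close together and above both control pools, and the late pools lay between, at 70.2 and 83.9. The fitted log2 change was 1.84 (standard error 0.293, edgeR adjusted p = 0.0409, 1 of 9922 genes called in this gate, 0.0101%). Early 1 exceeded control 2, of the same batch, by 2.12 on the log2 scale. Without control 1 the change was 2.15, and without control 2 it was 0.995. The call was lost under 7 of 18 alternatives, over which the change ran from 0.90 to 2.69, among them DESeq2 (adjusted p = 0.465), fits without the kit term (edgeR adjusted p = 0.994 over 6 pools and 0.379 over 4), thinned sums and the requirement of 2 marker UMIs.

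The Tac1 transcripts of the Sst gate came from few cells. In control 1 and 2, 2 of 91 and 7 of 110 cells held a Tac1 UMI, and in early 1 and 2, 8 of 91 and 12 of 140 did. The single richest cell carried 96.3% and 40.0% of the UMIs in the control pools and 45.6% and 24% in the early pools. In the Pvalb gate, where Tac1 is a usual marker, more cells held it in every pool, from 51.5% to 65.4%. There the level was 768 and 484 CPM in control and 1012 and 996 in early pools, a log2 change of 0.94 that was not called (edgeR adjusted p = 0.964), with early above control and the late pools at 1131 and 978. In the Vip gate at most 2 cells of a pool held a Tac1 UMI.

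Of the other Pvalb interneuron markers in the Sst gate, Cox6a2 had both early pools above both control pools, as Tac1 did. Cox6a2, a respiratory chain subunit of fast-spiking interneurons, was at 19.4 and 13.0 CPM in control and 53.4 and 23.4 in early pools (log2 change 1.98, not called, edgeR adjusted p = 0.536). A Cox6a2 UMI was found in 6.59% and 8.18% of control cells and in 20.9% and 5.0% of early cells. In early 2 a single cell carried 52.4% of its 21 UMIs. Kcnc1, a potassium channel of fast-spiking cells, stood at 233 and 334 UMIs per 1000000 in control and 290.0 and 353 in early pools, and Kcnip2, a channel partner, at 8.27 and 14.3 against 11.9 and 11.2, with control and early overlapping in both. The summed level of the 5 markers was 308 and 390 per 1000000 in control, 471 and 502 in early and 404 in both late pools. Kcnc1 gave the largest share, and none of the 5 was at 0. Tac1, the called gene, was 1 of the 5, so the sum is not independent of the call. The part of cells with a Pvalb-like profile in the Sst gate was not tested.

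**Figure D1:**
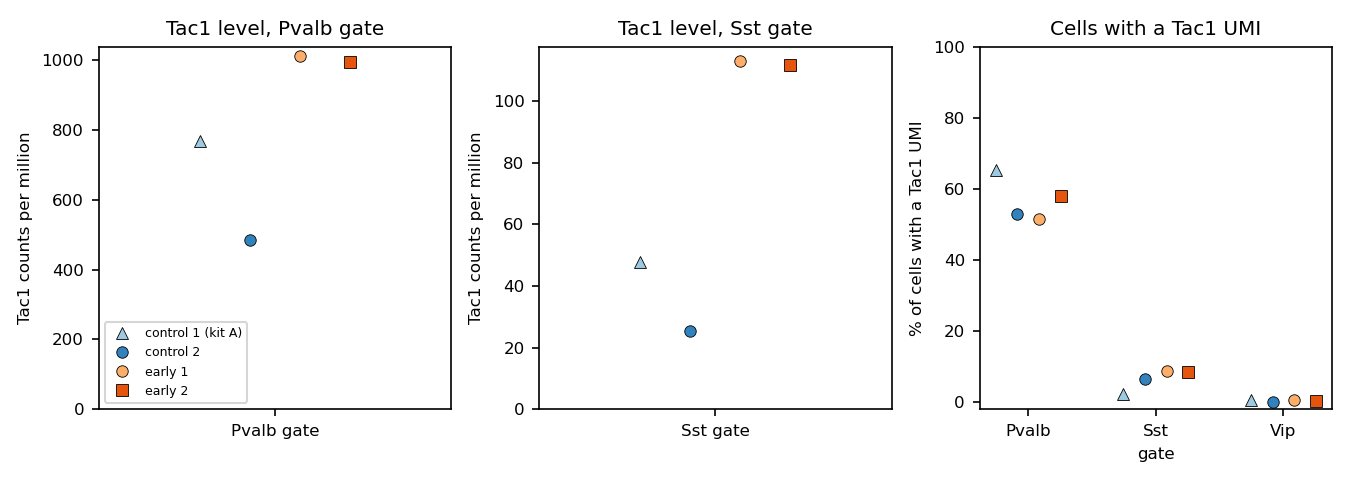
Tac1 by pool. The left and middle panels give CPM in the Pvalb and Sst gates, and the right panel the percentage of cells with at least 1 Tac1 UMI in each GABAergic gate. Each point is 1 pool (triangle and circle in blue, control 1 and 2; circle and square in orange, early 1 and 2). Both early pools lie above both control pools in the Pvalb and Sst gates, while at most 8.79% of Sst cells held a Tac1 UMI.

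Hbb-bt, an adult beta globin whose reads can be split with its near-identical neighbours, was lower in the early pools of the Rorb gate. Its level was 134 and 198 CPM in control 1 and 2, 3.11 and 9.60 in early 1 and 2, and 177 and 82.1 in the late pools. The log2 change was -4.71 (standard error 0.473, edgeR adjusted p = 0.00849, 1 of 12985 genes called in this gate, 0.00770%), and -5.06 without control 1. The call was lost under 3 of 18 alternatives: DESeq2 (adjusted p = 0.0531), 6 pools without the kit term (edgeR adjusted p = 0.347) and doublets kept (edgeR adjusted p = 0.0994). Almost all of these UMIs came from a handful of cells. In control 1 a single cell gave 94.6% of 336 UMIs, and in control 2 the top 5 of 761 cells gave 99.1% of 1419 UMIs. The alpha globins Hba-a1 (638 and 325 CPM in control, 5.96 and 37.0 in early pools) and Hba-a2 (463 and 259, 3.37 and 34.5) showed the same order without being called. In the Fezf2 gate Hbb-bt did not follow this order, at 53.9 and 1.75 CPM in control and 2.97 and 107 in early pools.

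Ccl4, a chemokine of activated microglia, was called in the Fezf2 gate, outside the rule for named genes because its pools overlap. It stood at 19.7 and 2.77 CPM in control 1 and 2, 22.3 and 13.8 in early 1 and 2, and 33.4 and 4.76 in the late pools. Both pools of kit A were among the highest, and the fitted change of 2.75 (standard error 0.328, edgeR adjusted p = 0.0366, 1 of 13530 genes called, 0.00739%) rests on the kit term. Without that term the change was 0.936 over the 6 pools and no longer called (edgeR adjusted p = 0.999), and without control 1 it was 2.76. In all, the call was lost under 6 of 18 alternatives, the others being 4 pools without the kit term, thinned sums, 2 marker UMIs, gates that were not exclusive, and cells of male mice alone. The top 5 cells carried 81.1% of its 143 UMIs in early 1. Beside it, the 8 microglia markers summed to 70.4 and 28.9 per 1000000 in control, 74.8 and 36.6 in early, and 146 and 30.8 in late pools of this gate, none at 0, and their part in the result was not tested.

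The activity-regulated genes were examined next in the 4 glutamatergic gates, and Junb was the one with the steadiest difference. Junb, a partner of Fos in the AP-1 transcription factor, stood at 319 and 365 CPM in control 1 and 2 and at 434 and 490 in early 1 and 2 of the Cux2 gate. In the Rorb gate it was at 295 and 294 in control and 373 and 425 in early pools. In the Fezf2 gate the values were 200 and 250 against 312 and 358, and in the Foxp2 gate 256 and 293 against 386 and 448. Early lay above control without overlap in all 4 gates, an order that 336 of 12031 genes measured in all 4 share (2.79%). The log2 changes were 0.43, 0.54, 0.55 and 0.53 in the Cux2, Rorb, Fezf2 and Foxp2 gates, and in none was Junb called, the edgeR adjusted p being 0.997 or higher. Without control 1 they were 0.34, 0.44, 0.41 and 0.52, and early 1 exceeded control 2 by 0.25 to 0.40 on the log2 scale. The late pools lay below both early pools in the Cux2 gate (410 and 362 CPM) and the Foxp2 gate (325 and 351), whereas in the Rorb gate late 1 (448) was above both early pools and late 2 (330) below them. The rise of Junb was not particular to glutamatergic neurons. Over all gated GABAergic neurons its change was positive under each of 16 alternatives, from 0.273 to 0.627, and was not called.

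**Figure D2:**
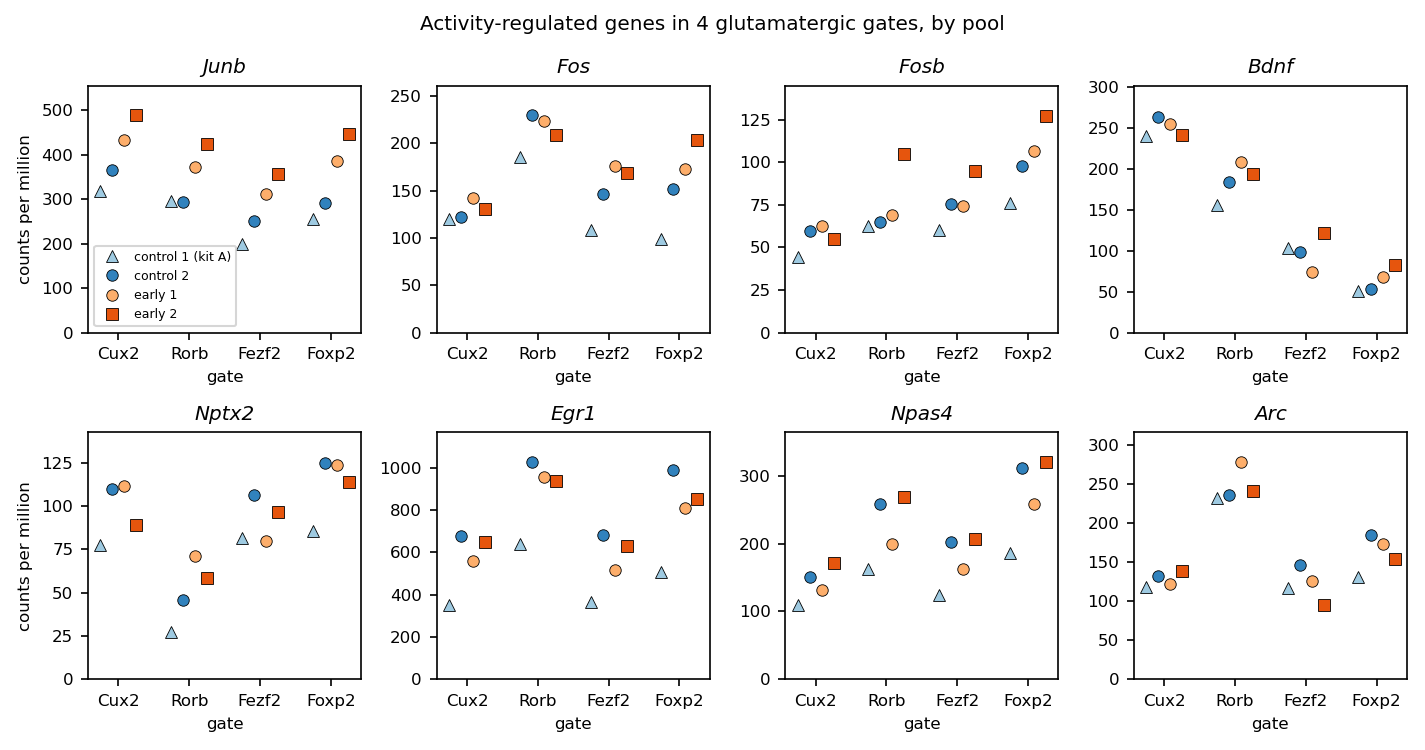
Levels of 8 activity-regulated genes in CPM (vertical axis, from 0) in the 4 glutamatergic gates (horizontal axis). Each point is 1 pool, with control in blue and early in orange, and the triangle is control 1 of kit A. Early Junb lies above control Junb in each gate, and for Egr1 and Npas4 control 1 is the lowest pool and early 1 lies below control 2 in each gate.

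Fos itself, the gene whose promoter drives the recombinase, had smaller changes in each gate. It was at 120 and 122 CPM in control and 142 and 131 in early pools of the Cux2 gate, and at 99 and 152 against 173 and 204 in the Foxp2 gate. In the Fezf2 gate it was at 108 and 146 against 176 and 168, and in the Rorb gate the pools overlapped at 186 and 230 against 224 and 208. The log2 changes were 0.18, 0.12, 0.36 and 0.44 in the order Cux2, Rorb, Fezf2 and Foxp2, all uncalled. Without control 1 that of the Rorb gate was -0.09. Fosb, a longer-lived member of the family, had changes of -0.07, 0.34, 0.09 and 0.26 in the same order.

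Egr1, Npas4, Arc, Nr4a1 and Homer1 showed no common direction. Egr1, a zinc finger transcription factor, was at 353 and 675 CPM in control and 557 and 651 in early pools of the Cux2 gate, and its log2 changes ran from -0.05 to 0.07 over the 4 gates. For Npas4, a factor that adjusts inhibitory synapses, they ran from -0.08 to 0.07. In both genes control 1 was the lowest of the 4 pools in each gate, and early 1 lay below control 2 throughout. Arc, which regulates AMPA receptor traffic, had changes of 0.18, 0.43, -0.12 and 0.12, Nr4a1, a nuclear receptor, of -0.09, 0.25, 0.10 and 0.07, and Homer1, a postsynaptic scaffold, of -0.12 to -0.004. These values moved with single pools. Without control 2 the change of Arc was 0.911, 1.49 and 1.18 in the Cux2, Rorb and Foxp2 gates, and without control 1 it was -0.03, 0.14 and -0.17. In the Rorb gate, Nr4a1 ran from -0.145 to 1.45 and Egr1 from -0.122 to 0.725 over 18 alternatives, with the highest value of each without control 2.

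Of the slower effectors, Nptx2 and Bdnf were read in each glutamatergic gate. Nptx2, a secreted pentraxin that gathers AMPA receptors at synapses onto interneurons, was at 27.4 and 46.0 CPM in control and 71.0 and 58.7 in early pools of the Rorb gate. Its log2 change there was 0.72 (standard error 0.250, edgeR adjusted p = 1.000) and 0.50 without control 1, while without control 2 it was 1.62, and in the other 3 gates it lay between -0.08 and 0.10. Bdnf, a neurotrophin, was at 50.6 and 53.2 CPM in control and 67.9 and 82.8 in early pools of the Foxp2 gate, a log2 change of 0.45 that was not called. In the Rorb gate it was at 156 and 184 against 208 and 194, also without overlap (log2 change 0.27, not called), and in the Fezf2 gate the pools overlapped at 104 and 98.97 against 73.9 and 121. In the Cux2 gate, where Bdnf was most abundant of the 4 gates, it was at 240 and 263 against 255 and 242, and the pools overlapped.

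Over all gated glutamatergic neurons, 11 of 20 immediate early genes had both early pools above both control pools and 1 had them below, against 18.1% and 16.9% of all genes tested. The median log2 change of the list was 0.24, where the median of all genes was 0.00, 16 of the 20 were positive, and 0 were called (DESeq2 gave a median of 0.25). Set against the mean of the control pools, the list's median was -0.16 and 0.16 in control 1 and 2 and 0.16 and 0.32 in early 1 and 2, so that early 1 was level with control 2. Without control 1 the median was 0.14, without control 2 it was 0.66, and early 1 minus control 2 gave 0.04. Ier2, an early transcriptional regulator, was at 54.9 and 59.6 CPM in control and 77.4 and 84.0 in early pools (log2 change 0.60). Btg2, an antiproliferative gene, was at 59.4 and 56.5 against 79.7 and 72.8 (0.39). Gadd45b, which takes part in DNA demethylation and stood in the list of slower effectors, was at 67.4 and 79.3 against 100.1 and 117 (0.48). Early lay above control in all of these, and none was called, with an edgeR adjusted p of 0.999.

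By gate, the list of 20 had 6 members above and 2 below in Cux2 (17.6% and 16.9% of all genes), 6 and 0 in Rorb (17.8% and 17.5%), 7 and 1 in Fezf2 (17.8% and 18.0%), and 9 and 1 in Foxp2 (17.2% and 17.6%). The medians were 0.05, 0.18, 0.10 and 0.22. In the Pvalb gate 6 of 14 measured members were above and 0 below (18.3% and 17.1%), with a median of 0.30. In the Sst gate 5 of 20 were above and 3 below (18.0% and 18.4%), with a median of -0.11, and in the Vip gate 1 of 19 was above and 6 below (18.4% and 17.2%), with a median of -0.31. Arc in the Vip gate was at 10.2 and 7.32 CPM in control and 5.44 and 1.09 in early pools. The gate's sums held 714985 and 2335942 UMIs in control and 3118438 and 1815115 in early pools, so these levels rest on few Arc UMIs. The list of 26 slower effectors had 12 of 25 measured members above and 2 below in Rorb and 8 of 14 above and 1 below in Pvalb, with medians of 0.18 and 0.40. In the Cux2 gate 4 of 26 were above and 6 below, with a median of -0.07. Within 1 batch, early 1 minus control 2, the immediate early gene medians were -0.132, -0.021, -0.018 and 0.023 in Cux2, Rorb, Fezf2 and Foxp2, and -0.025, -0.204 and -0.396 in Pvalb, Sst and Vip, so that the positive sign held in Foxp2 and in no other of these gates. In the fit without control replicate 2 the medians of the Sst and Vip gates were 0.15 and 0.24. Whether either list differed between gates was not tested.

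The 250 bases before the RefSeq start (GRCm38.p6) of 4 of these genes are shown. Junb, Btg2 and Gadd45b were taken because their early pools lay above control, and Fos because its promoter drives the labelling. Capitals mark the cAMP response element (CRE, TGACGTCA) and its half-site TGACG, searched on both strands, and the half-site lies within the full element.
Junb: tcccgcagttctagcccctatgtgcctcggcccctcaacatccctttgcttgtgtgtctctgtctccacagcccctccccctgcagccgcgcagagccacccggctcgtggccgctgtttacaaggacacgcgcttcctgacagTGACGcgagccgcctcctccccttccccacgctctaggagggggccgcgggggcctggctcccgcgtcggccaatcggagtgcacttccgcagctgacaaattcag
Fos: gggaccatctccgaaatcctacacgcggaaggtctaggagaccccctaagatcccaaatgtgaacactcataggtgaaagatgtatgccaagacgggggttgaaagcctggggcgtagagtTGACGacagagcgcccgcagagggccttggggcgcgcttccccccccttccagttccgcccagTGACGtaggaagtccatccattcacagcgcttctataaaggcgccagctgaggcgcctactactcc
Btg2: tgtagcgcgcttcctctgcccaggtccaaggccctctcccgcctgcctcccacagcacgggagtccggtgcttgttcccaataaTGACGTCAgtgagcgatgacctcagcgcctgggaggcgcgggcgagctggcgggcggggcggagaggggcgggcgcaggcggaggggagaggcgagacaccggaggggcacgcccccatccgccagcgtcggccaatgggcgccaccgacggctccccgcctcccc
Gadd45b: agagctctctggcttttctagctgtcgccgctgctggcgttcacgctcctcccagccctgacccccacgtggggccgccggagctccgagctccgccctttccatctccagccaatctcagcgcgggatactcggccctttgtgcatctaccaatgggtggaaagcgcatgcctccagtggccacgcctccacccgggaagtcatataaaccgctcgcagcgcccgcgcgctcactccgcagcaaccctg
These windows run on chr8:84978749-84978998 (minus strand), chr12:85473640-85473889 (plus), chr1:134079156-134079405 (minus) and chr10:80929841-80930090 (plus). Btg2 held the full element, which 1.55% of all 32851 windows of this length hold. Junb held the half-site once and Fos at 2 places, against 17.8% of all windows with at least 1. None of the 4 windows held TGANTCA, the AP-1 site (6.75% of windows), or a CArG box (1.47%), the site of serum response factor. The window of Gadd45b held none of the letters searched. Sequence beyond the 250 bases was not searched, so no promoter is shown to lack a site. Promoters of Ier2, Egr1 and Arc were not used here.

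The genes with the smallest p in each gate, beside the called ones, belonged to several cell functions and were not called. In the Cux2 gate these were the smooth muscle genes Acta2 (1.45 and 0.443 CPM in control, 35.2 and 8.70 in early pools), Tagln (2.17 and 4.13, 19.8 and 13.2) and Myl9 (2.17 and 0.443, 11.3 and 5.40). A single cell carried 97.6% and 79.3% of the Acta2 UMIs in early 1 and 2, 85.0% and 63.6% of those of Tagln and 92.5% and 88.9% of those of Myl9. In the Fezf2 gate they were Qpct, an enzyme that cyclises peptide ends (13.7 and 16.4, 37.5 and 31.1), Rgs16, a regulator of G protein signalling (14.1 and 24.3, 47.9 and 36.3), and Fndc5, the precursor of irisin, which was lower (86.0 and 83.0, 55.0 and 45.6). In the Foxp2 gate they were Ctgf, a matrix protein of the deepest cortical neurons (8.73 and 39.3, 59.1 and 80.4), Clic1, and Nptxr, the receptor of neuronal pentraxins, which was lower (83.7 and 47.1, 30.7 and 29.6). Control 1 stood apart from control 2 for Ctgf and Nptxr.

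The genes chosen by the same rule in the interneuron gates were also of mixed function. In the Vip gate Atp6ap2, a subunit of the vesicular proton pump, was at 240 and 309 CPM in control and 555 and 525 in early pools. Atp5b, a subunit of ATP synthase, was at 605 and 719 against 1313 and 1109, and Psmc6, a proteasome subunit, at 94.5 and 134 against 248 and 219. In the Sst gate Ndfip1, an adaptor of ubiquitin ligases, was at 17.6 and 50.5 against 111 and 125. In the Pvalb gate Caln1, a calcium sensor, was lower, at 167 and 187 against 34.6 and 96.1. None of these was called, with edgeR adjusted p-values from 0.536 to 0.964, and Pvalb rests on 26 to 53 cells per pool.

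The 74 measured nuclear genes of oxidative phosphorylation had a median log2 change of 0.34 in gated GABAergic neurons and the 75 in glutamatergic neurons one of 0.21. In every gate the median was positive, from 0.18 in Rorb to 0.35 in Pvalb, with 0 called. In GABAergic neurons 16 of 74 lay above without overlap and 2 below, against 19.8% and 18.6% of all genes, and in glutamatergic neurons 10 of 75 and 2, against 18.1% and 16.9%. The summed level was 32546 and 25088 per 1000000 in control 1 and 2, 29961 and 27361 in early 1 and 2 and 36775 and 27390 in late 1 and 2 of glutamatergic neurons. In GABAergic neurons it was 34865 and 28321, 33553 and 31488, and 43420 and 29082, so that control 1 lay above both early pools in each class. The positive medians depend on how the kit is treated: with 6 pools, stage alone, they were -0.05 in glutamatergic and 0.01 in GABAergic neurons. Ndufa9, a subunit of complex I, was at 68.5 and 76.6 CPM in control and 134 and 123 in early GABAergic neurons (log2 change 0.73). Early 1 minus control 2 gave list medians of 0.33 and 0.29 in the 2 classes.

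The heat shock and dissociation genes also lay higher in early pools, with 10 of 13 above and 0 below in GABAergic neurons (19.8% and 18.6% of all genes) and 9 of 13 above and 0 below in glutamatergic neurons (18.1% and 16.9%). Their median log2 changes were 0.32 and 0.15, and 0 were called. Hspa8, a constitutive chaperone, was at 773 and 698.1 CPM in control and 1164 and 1088 in early GABAergic neurons, and at 804 and 766 against 1053 and 1091 in glutamatergic neurons. Hspa5, the chaperone of the endoplasmic reticulum, was at 117 and 235 against 377 and 419 in GABAergic neurons. The median mitochondrial share of UMIs moved with them, at 1.19% and 1.99% in control and 2.32% and 2.95% in early glutamatergic neurons, and the share is lowest in kit A. How far handling of the tissue took part in these and in the immediate early gene values was not tested.

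Ribosomal protein genes had medians from 0.09 in Pvalb to 0.255 in Fezf2, with 2 of 85 members above and 0 below in glutamatergic neurons (18.1% and 16.9% of all genes) and 3 of 82 above and 13 below in the Pvalb gate (18.3% and 17.1%). Their summed level was 42177 and 25272 CPM in control 1 and 2, 30264 and 27589 in early 1 and 2, and 48594 and 27691 in late 1 and 2. Rpl35 was at 199 and 63.1 CPM in control 1 and 2, 89.7 and 102 in early 1 and 2, and 222 and 61.3 in late 1 and 2, so the 2 pools of kit A stood above all others in both. With 6 pools, stage alone, the median of the list in glutamatergic neurons was -0.22 where the fit with the kit term gave 0.24. The mitochondrially encoded genes had 8 of 13 members above and 1 below in glutamatergic neurons, with a median of 0.22, and 3 of 13 above and 1 below in GABAergic neurons (19.8% and 18.6% of all genes), with a median of 0.06. Among them mt-Nd3 was at 63.9 and 92.3 against 146 and 231 (log2 change 1.14, edgeR adjusted p = 0.999).

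Lists of synaptic genes had mostly small negative medians, with 0 called. The presynaptic release list had a negative median in each of the 7 gates, from -0.09 in Rorb to -0.18 in Vip, with 9 of 21 members below and 2 above in glutamatergic neurons (16.9% and 18.1% of all genes) and 7 and 3 in GABAergic neurons (18.6% and 19.8%). In the fit without control replicate 2 it was positive in the Cux2, Rorb, Fezf2 and Foxp2 gates, from 0.02 to 0.08. Syt1, the calcium sensor of vesicle fusion, was at 2191 and 2307 CPM in control and 1991 and 1604 in early glutamatergic neurons, and at 2777 and 2502 against 2274 and 1927 in GABAergic neurons, with log2 changes of -0.34 and -0.29. Glutamate receptor genes had medians of -0.09 in both classes, with 8 of 25 below and 4 above in glutamatergic and 9 of 24 below and 1 above in GABAergic neurons, but a median of 0.01 in the Rorb gate. Shank1, a postsynaptic scaffold, was at 217 and 228 against 189 and 164 in glutamatergic neurons. Voltage-gated channels had medians of -0.09 and -0.16, with 1 of 20 below and 1 above in glutamatergic and 6 of 20 below and 1 above in GABAergic neurons. GABA-A receptor genes had medians of -0.10 and -0.03, with 4 of 14 below and 3 above in glutamatergic and 3 of 14 below and 5 above in GABAergic neurons. Their medians were 0.03 and 0.11 with 6 pools, stage alone. They included Gabrd, the delta subunit of extrasynaptic receptors, which was higher in early neurons of both classes (59.2 and 72.0 against 84.1 and 94.8 in glutamatergic, 32.6 and 59.8 against 72.9 and 81.6 in GABAergic).

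**Figure D3:**
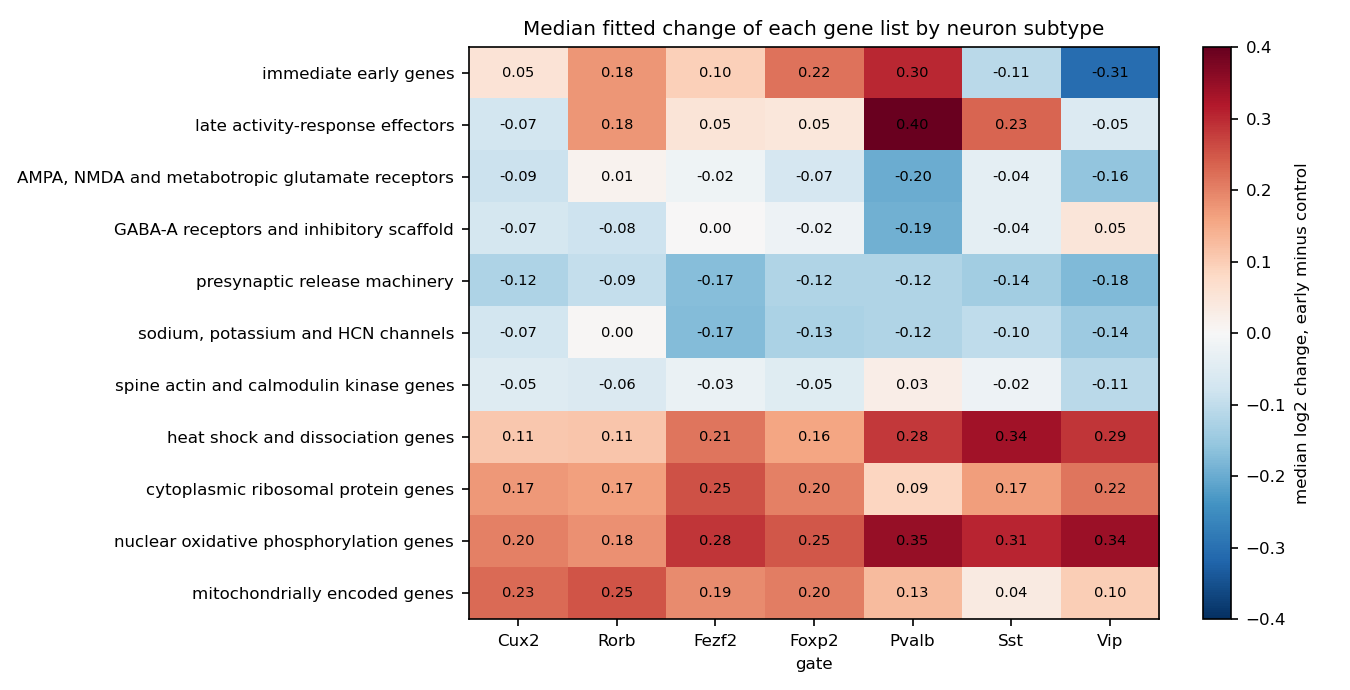
Median fitted log2 change (early minus control; colour and printed value) of 11 gene lists (rows) in the 7 subtype gates (columns). Oxidative phosphorylation, ribosomal and heat shock lists are positive in each gate, the presynaptic list is negative in each gate, and the immediate early genes range from 0.30 in Pvalb (-0.025 for early 1 minus control 2) to -0.31 in Vip. With 6 pools, stage alone, the ribosomal medians are negative in each gate, from -0.26 to -0.49. No member of these lists was called.

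Spine actin and calmodulin kinase genes had medians near 0 in both classes (-0.06 and 0.02). In glutamatergic neurons 3 of 21 members were above and 9 below (18.1% and 16.9% of all genes), and in GABAergic neurons 5 and 6 (19.8% and 18.6%). Camk2n1, an inhibitor of the calmodulin kinase, was at 3825 and 2411 CPM in control and 1804 and 1796 in early glutamatergic neurons. Arpc3, a subunit of the actin-branching complex, was at 339 and 328 against 452 and 472 there, and at 166 and 171 against 284 and 286 in GABAergic neurons. Limk1, a kinase that restrains actin turnover, was at 40.5 and 39.5 against 27.3 and 26.0 in GABAergic neurons. The neuropeptide list had 5 of 8 measured members above and 0 below in GABAergic neurons (19.8% and 18.6% of all genes), with a median of 0.38, and 0 of 9 above and 1 below in glutamatergic neurons (18.1% and 16.9%), with a median of 0.03. In GABAergic neurons, Cck was at 1434 and 1253 CPM in control and 1703 and 2062 in early pools, and Npy at 6300 and 5132 against 6969 and 6673. Apart from Tac1 in the Sst gate none of these was called.

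To ask where glutamatergic and GABAergic neurons differed in their early change, both classes were fitted together with the pool as a block and a term for class by stage. This gave 17 calls among 17943 genes (0.0947%), 14 of them with the more positive change in glutamatergic neurons, and DESeq2 called 1. Of these, 10 are known from microglia and macrophages, among them the complement genes C1qa, C1qb and C1qc, the chemokines Ccl3 and Ccl4, the protease Ctss, the cytokine Il1a, Plek, Fcer1g and Bcl2a1b. C1qb was at 50.6 and 28.0 CPM in control and 69.7 and 30.6 in early glutamatergic neurons, and at 43.8 and 9.68 against 4.73 and 6.40 in GABAergic neurons. The control and early pools overlapped in the first class, and in the second the early pools lay below both control pools. The difference of the log2 changes was 2.02 (standard error 0.308, edgeR adjusted p = 0.000761), and for Ccl4 it was 2.10 (0.251, adjusted p = 1.13e-05).

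The microglia markers moved with these genes, and 4 of the 8, C1qa, C1qb, C1qc and Ctss, are themselves among the 17, so the sum of the list is not independent of the calls. The 8 markers, none at 0, summed to 269 and 144 per 1000000 in control, 338 and 159 in early and 494 and 86.0 in late glutamatergic neurons. In GABAergic neurons they summed to 228 and 53.9, 36.9 and 35.4, and 195 and 30.0. The pools of kit A held most of them in GABAergic neurons, and early 1 and late 1 held most in glutamatergic neurons. A C1qb UMI was found in 8.07% and 4.79% of control and 9.74% and 3.78% of early glutamatergic cells, and in 7.89% and 3.76% against 4.97% and 3.17% of GABAergic cells. The part of microglial RNA or of doublets in these calls was not tested.

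**Figure D4:**
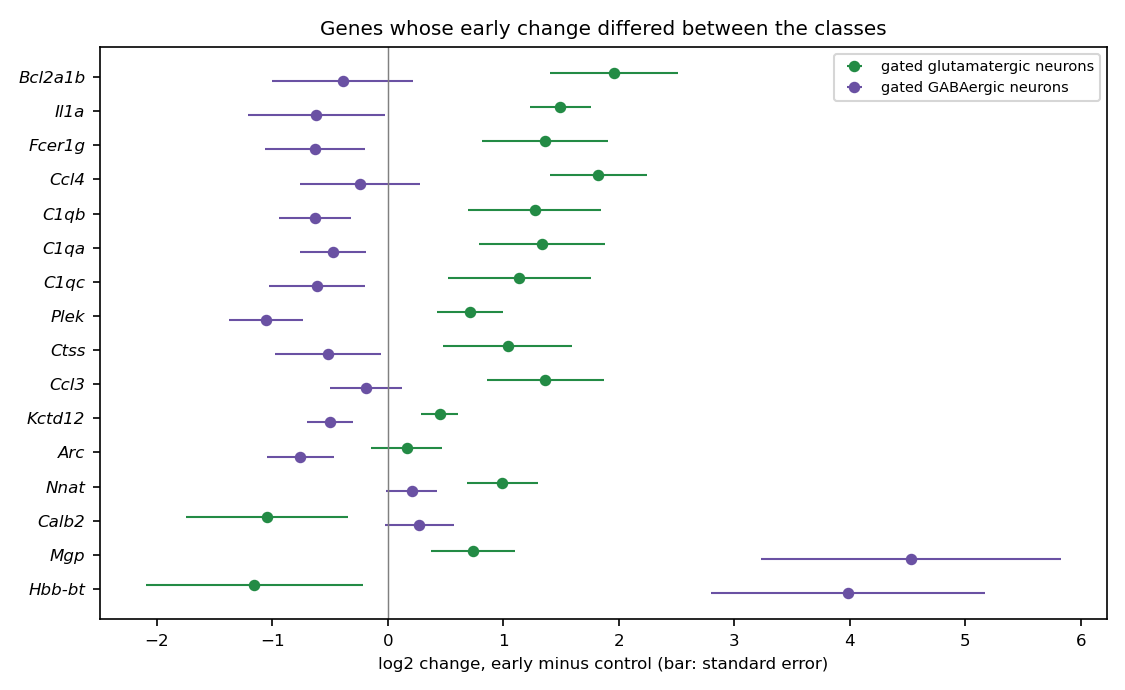
Early change (log2, horizontal axis) in gated glutamatergic (green) and GABAergic neurons (purple) of 16 of the 17 genes called for a difference between the classes. Bars give the standard error. Ermn, with 2 and 0 UMIs in the control glutamatergic pools, is left out. Microglial genes such as C1qb and Ccl4 lie to the right of 0 in glutamatergic and to the left of 0 in GABAergic neurons.

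Arc was the activity-regulated gene among the 17. In glutamatergic neurons it stood at 137 and 165 CPM in control and 158 and 145 in early pools, and the pools overlapped. In GABAergic neurons it stood at 13.9 and 19.9 in control and 11.4 and 8.80 in early pools, with early below control. The log2 changes were 0.17 and -0.76, neither called within its class, and their difference was 0.89 (standard error 0.176, edgeR adjusted p = 0.0176), or 0.86 without control 1. The difference was no longer called under 6 of 13 alternatives, over which it ran from 0.769 to 1.18. These were DESeq2 (adjusted p = 1.0), thinned sums (edgeR adjusted p = 0.614), a fit without the term for class by kit (0.262), and fits without control 2, early 1 or early 2. An Arc UMI was found in 47.4% to 65.5% of glutamatergic cells and in 4.04% to 12.0% of GABAergic cells of the 4 pools. The markers of glutamatergic neurons moved with it in the GABAergic gate, at 369 and 299 per 1000000 in control and 278 and 216 in early pools, and their part in the result was not tested. Of the remaining 6 calls, Kctd12, an auxiliary subunit of GABA-B receptors, had log2 changes of 0.45 in glutamatergic and -0.50 in GABAergic neurons, and Nnat, a membrane proteolipid, of 0.99 and 0.21. Calb2, a calcium buffer of Vip interneurons, had 20 and 132 UMIs in the control glutamatergic pools, and Hbb-bt, Mgp and Ermn also rest on few cells or few UMIs.

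The reporter transcript was read through wpre, the stabilising element at its end, since tdtomato itself gave only 3 to 48 UMIs per pool. With every cell thinned to 1000 UMIs, a wpre UMI was found in 5.19% and 3.86% of control glutamatergic neurons (control 1 and 2) and in 5.23% and 3.84% of early ones. The difference of the means, 4.54% minus 4.52%, was 0.012 percentage points (SDs 0.988 and 0.936, n = 2 each, exact two-sided permutation p = 1.0), in a design whose smallest p is 0.333. Without control 1 the difference was 0.673 points. Unthinned shares were 18.1% and 22.7% against 29.0% and 13.7% and followed the depth of the pools. Microglia-gated cells, which should lack a neuronal Fos response, held a wpre UMI in 3.88% and 4.20% of control and 4.10% and 3.09% of early cells at the same 1000 UMIs, from median depths of 1356 and 2097, and 2748 and 1716 UMIs. With at least 1 wpre UMI, the shares over all glutamatergic neurons were thus near those of microglia-gated cells. With at least 2 at the same thinning, glutamatergic neurons stood at 1.69% and 1.04% in control and 1.59% and 0.761% in early pools. Microglia-gated cells then stood at 0.102% and 0.552%, and 0.181% and 0.238%. How well microglia-gated cells measure the background of neurons was not tested.

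By gate, Rorb had the highest shares, 8.25% and 4.47% in control and 7.71% and 5.13% in early pools. Cux2 stood at 6.71% and 3.94% against 5.29% and 3.60%. It was second of the 7 gates save in early 2, where Pvalb stood at 4.65% (2 of 43 cells). In the Foxp2 gate early lay above control, at 2.03% and 2.17% against 2.62% and 2.89% (exact permutation p = 0.333), and each pool lay below its own microglia-gated share. The Wilson 95% intervals, from 0.986% to 4.13% in control 1 and from 1.70% to 4.88% in early 2, overlap and cover counting error only. Over all gated GABAergic neurons early also lay above control, at 2.94% and 2.67% against 3.57% and 2.95% (exact permutation p = 0.333), with each pool below its own microglia-gated share. As a level, wpre was at 70.9 and 55.1 CPM in control and 74.1 and 49.1 in early glutamatergic neurons, with log2 changes of 0.73, 0.50, 0.18 and -0.10 in the Cux2, Rorb, Fezf2 and Foxp2 gates, none called. Over 18 alternatives the change of wpre in Cux2 cells ran from 0.17 to 1.84 and that of wpre in Rorb cells from -0.40 to 1.78. The highest values came without control 2, and without control 1 the changes were 0.46 and 0.19.

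**Figure D5:**
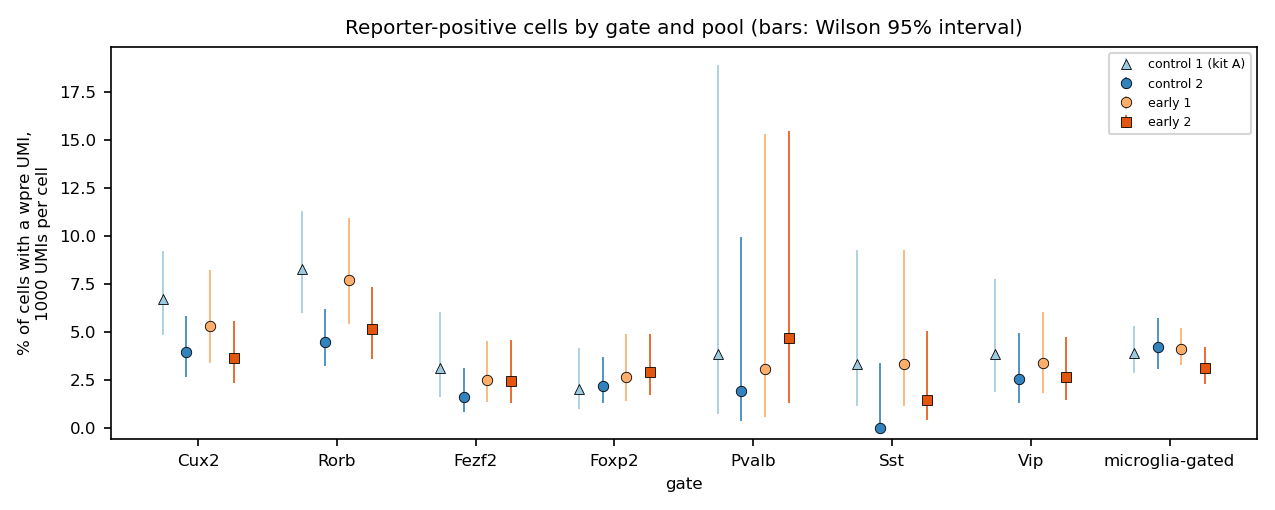
Percentage of cells with a wpre UMI after thinning each cell to 1000 UMIs (vertical axis), by gate (horizontal axis) and pool (colour and symbol), with Wilson 95% intervals. Control and early pools overlap in most gates, and microglia-gated cells lie between 3.09% and 4.20%, with Rorb cells above them in each pool.

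The makeup of the typed neurons was compared last. With cells thinned to 2000 UMIs, Pvalb cells made up 9.35% and 8.97% of typed GABAergic neurons in control and 6.45% and 5.93% in early pools, and Vip cells 60.3% and 67.3% against 71.3% and 68.4%. In both the groups did not overlap, and the exact two-sided permutation p was 0.333, the smallest possible, and 1.0 after adjustment over the 7 subtypes. The Pvalb difference of -2.97 percentage points was -0.824 when presumed doublets were kept and -2.78 without control 1. That of Vip went from 6.03 to 2.53 without control 1. With presumed doublets kept, Vip cells made up 58.4% and 67.5% in control and 71.5% and 65.8% in early pools, which overlap. Sst cells made up 30.4% and 23.7% against 22.3% and 25.7%. Without control 1 the differences of the Sst and Cux2 cells, -3.06 and -2.16 points, were 0.253 and 2.69. Among glutamatergic neurons, Cux2 cells made up 30.8% and 21.1% against 23.4% and 24.2%, and Rorb, Fezf2 and Foxp2 cells also overlapped between groups. Of all kept cells, neurons or not, 1609 and 1710 in the control and 1333 and 2732 in the early pools had fewer than 2000 UMIs and were left out of these shares, and papain dissociation can change which neurons are recovered.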

How the data were processed

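The data were single-cell 3' RNA libraries of mouse motor cortex. The authors deposited UMI counts per gene and cell as filtered matrices, made with Cell Ranger 3.1.0 on GRCm38 (mm10) per the submitters' processing notes, while the file headers name software version 3.0.2. Libraries were made with kit v2 or v3 per the labels' protocols, which do not say which library had which.

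Cells entered with 500 or more detected genes, 1000 or more UMIs and a mitochondrial share up to 20%, and the top Scrublet scores (scanpy 1.11.5), at 0.8% per 1000 barcodes, were removed as presumed doublets. Counts were summed per pool over both hemispheres and the cells of a gate. A gate needed 20 cells in each pool. Each sum was fitted with edgeR 4.0.16 (R 4.3.3; filterByExpr, TMM factors, quasi-likelihood F test) on stage and kit over 6 pools, with 2 residual degrees of freedom and Benjamini-Hochberg adjustment over all genes of the gate, called under 0.05. A standard error is the log2 change over the root of F. List values are medians of fitted changes, with no list test. Shares were compared by exact permutation tests over pools (scipy 1.17.1). The fits were tested on simulated data. DESeq2 1.42.0 and the other alternatives of the closing section were also run.

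Members, gene lists and tests were chosen with earlier results of these data known. Genes named were, per gate and class, up to 3 with the smallest p whose early pools lay on 1 side of both control pools, the activity genes and wpre in the glutamatergic gates whatever their values, and up to 3 per list by p in either class. Genes called for a difference between classes, and Ccl4 in the Fezf2 gate, were named beside these rules because they were called. The labels carry no replicate numbers: numbers follow accession order and pair nothing. Per pool, 1831 to 2926 typed cells limit the precision, and rare gates rest on 26 cells at the least.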

Additional observations from a re-analysis of the deposited data

Results flagged for a closer look

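The 17 values here are differences between gated glutamatergic and GABAergic neurons in their early change (log2, glutamatergic minus GABAergic), each past the threshold in a test of the difference itself. For genes known from microglia and macrophages they were 2.10 for Ccl4, 1.64 for Ccl3, 1.95 for C1qa, 2.02 for C1qb, 1.86 for C1qc, 1.66 for Ctss, 1.83 for Plek, 2.11 for Fcer1g, 2.22 for Il1a and 2.32 for Bcl2a1b. C1qa, C1qb, C1qc and Ctss are also members of the microglia marker list, whose summed level moved with them.

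Beside these genes, the differences were 0.96 for Kctd12, 0.82 for Nnat, 0.89 for Arc and -1.37 for Calb2. The others were -5.48 for Hbb-bt, -3.53 for Mgp and 9.09 for Ermn. Ermn had 57 of its UMIs in early 1 and 1 in early 2 of the glutamatergic pools, and Mgp had 129 in early 1 and 2 in early 2 of the GABAergic pools.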

How the results depend on the processing

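The counts of called genes depended strongly on the fit. Of 3 calls in the 7 gates, the count was 134 with no filter on low counts, 0 over 6 pools and 1 over 4 pools with stage alone, 285 with pools of the same kit, 11 with doublets kept and 11 in cells of male mice (Pvalb not tested). It ran from 53 to 383 when 1 pool was left out. For glutamatergic neurons, with 0 calls, it was 116 with no filter, 4 by DESeq2 and 0 to 16 with 1 pool left out. For GABAergic neurons, also with 0, it was 52, 1 by DESeq2, 107 with the same kit, 3 in cells of male mice and 2 to 157. The 17 differences between classes became 43 with no filter, 1 by DESeq2, 3 with thinned sums and 11 to 97 with 1 pool left out. The fits with the same kit or with 1 pool left out have 1 residual degree of freedom. It comes from the early pools with the same kit or without a control or late pool. Without an early pool it comes from how far the gap between the control pools differs from that between the late pools. The lone pool of a group is assumed to vary in the same way. The cause of the larger counts was not tested. The median of the immediate early genes, 0.243, ran from 0.136 to 0.66. The wpre difference of 0.012 points was -1.163 for early ipsilateral against control left libraries and 0.673 without control 1. Share differences moved by more than the SD between pools for Rorb (5.736 from -1.218) and Foxp2 (-3.737 from 0.373) with at least 2 marker UMIs, and for Pvalb (-2.966) unthinned (-2.205) and with doublets kept (-0.824). Where pools varied more, other moves stayed within the SD: Cux2 went from -2.155 to -4.421 with 2 marker UMIs, Fezf2 from 3.0 to 0.979 with doublets kept and 4.978 unthinned, and Rorb to 0.495 with doublets kept and -2.42 unthinned. Without control 1 the share differences were 2.689 for Cux2, -4.872 for Rorb, 1.652 for Fezf2, 0.53 for Foxp2, -2.778 for Pvalb, 0.253 for Sst and 2.525 for Vip. The cause was not tested. With 1 pool left out, the difference between classes ran from -1.64 to 0.18 for Calb2, positive without control replicate 2, and from -4.38 to 0.225 for Mgp, positive without early replicate 1.

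The naming rules selected 239 gene and gate or class pairs that were not called, not all of them printed above. Of these, 131 had the same sign under every alternative run, fits with 1 pool left out included. No paired analysis was possible because the labels carry no replicate numbers and only 1 batch label is shared by an early and a control pool. With 2 pools a group, an exact permutation test cannot go below 0.333.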
